A study of Homo sapiens with 6 samples.

Results

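A set of 10 genes of cellular iron and heme handling was followed in AGS, an established line of human gastric adenocarcinoma cells, with and without indomethacin, a non-steroidal anti-inflammatory drug that inhibits cyclooxygenases. They were taken by name, out of 60604 genes read, as the genes of ferritin iron storage (FTH1, FTL, FTMT and the ferritin receptor NCOA4), iron import and export (TFRC, SLC11A2, SLC40A1), heme breakdown (HMOX1) and iron sensing (IREB2, FBXL5). Total RNA depleted of ribosomal RNA was sequenced in 6 libraries, 3 from cells labelled with no indomethacin and 3 from cells kept in 0.5 mM of the drug for 24 h. No genetic change or second agent is named for either group, and no time is given for the control libraries. Separate cultures are not mentioned for the replicates, and p-values therefore reflect the spread among these libraries, which could be purely technical.

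Cells take up iron bound to transferrin through the transferrin receptor, move it into the cytosol through a divalent metal transporter, store it inside the ferritin shell and release it through ferroportin. Iron held in heme is freed by heme oxygenase. When iron is low, iron regulatory proteins bind a short RNA hairpin, the iron-responsive element (IRE). Binding in the 5′ UTR blocks translation of an mRNA, as in the ferritins, and binding in the 3′ UTR protects an mRNA from decay, as in the transferrin receptor.

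This element was looked for in all protein-coding transcripts of GENCODE 29, and 4 of the 10 genes held a match. The search asked for a C, 5 bases, the loop CAGTGN with any last base but G, and 5 bases that pair with the first 5, G-T pairs allowed, on the transcript strand. Of 19684 protein-coding genes, 214 (1.09%) held at least 1 match, so a match describes the letters and does not show binding. The matches are printed because they divide the genes that carry the element in the 5′ UTR from the gene that carries it in the 3′ UTR. Each line gives 30 bases, 5′ to 3′ in the sense of the mRNA, and the capitals mark the loop.

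FTH1, 5′ UTR: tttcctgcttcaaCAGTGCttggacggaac
FTL, 5′ UTR: tctcttgcttcaaCAGTGTttggacggaac
SLC40A1, 5′ UTR: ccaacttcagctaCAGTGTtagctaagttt
TFRC site 1, 3′ UTR: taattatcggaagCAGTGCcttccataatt
TFRC site 2, 3′ UTR: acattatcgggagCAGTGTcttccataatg
TFRC site 3, 3′ UTR: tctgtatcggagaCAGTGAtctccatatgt
TFRC site 4, 3′ UTR: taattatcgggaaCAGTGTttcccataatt

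On build hg38 the FTH1 window lies at chr11:61967574-61967603 on the minus strand, the FTL window at chr19:48965334-48965363 on the plus strand and the SLC40A1 window at chr2:189580661-189580690 on the minus strand. The TFRC windows lie on the minus strand at chr3:196050979-196051008, chr3:196050575-196050604, chr3:196050510-196050539 and chr3:196050463-196050492, in the order printed. Both ferritin windows were alike in 27 of 30 bases. They differed by T2C, C5T and C19T, with the FTH1 base first and positions counted from 1 at the 5′ end of the printed window. No match was found in the transcripts of HMOX1, NCOA4, IREB2, FBXL5, FTMT or SLC11A2. That says only that these letters were not found together there.

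The libraries held 17535435 to 23221077 counts, and 3 counts, the limit that a count of 0 allows, corresponded to 0.129 to 0.171 CPM. CPM here is the count scaled to a common library size by TMM, which sets libraries level through the bulk of their genes. Such limits cover counting error only. Of 17200 genes tested, 61.6% passed an adjusted p of 0.05 by edgeR's quasi-likelihood test, 30.6% higher and 31.0% lower with indomethacin. In 67.0% of them the groups did not overlap, with every library of one group above every library of the other. Any single call below is therefore to be read against a background in which most genes moved. Summed over 6 epithelial markers the libraries held 2880 to 3716 CPM, although CLDN3 had at most 1 count in all. Of 9 markers of leukocytes, fibroblasts, endothelium and red cells, 8 stayed under 1 CPM in every library. Their sum was 4.87 to 7.24 CPM in control and 9.89 to 12.1 CPM in indomethacin libraries, most of it COL1A1, and its part in the results was not tested. In bulk RNA of this kind, fewer cells that express a gene and less of its RNA per cell cannot be told apart.

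Of the 10 genes, 9 could be tested: 4 were higher with indomethacin, 4 were lower and 1 did not pass. Calls in 8 of 9 stand beside 61.6% of all genes. The groups did not overlap in the same 8 genes, 4 higher and 4 lower, as in 33.7% (higher) and 33.3% (lower) of all genes. The 9 log2 fold changes had a median of 0.02, against 0.04 over all genes tested. The genes therefore did not move in one direction as a set. Both ferritin subunits and heme oxygenase 1 were higher, the exporter and the ferritin receptor were lower, and the transferrin receptor mRNA did not pass the test.

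**Figure D1:**
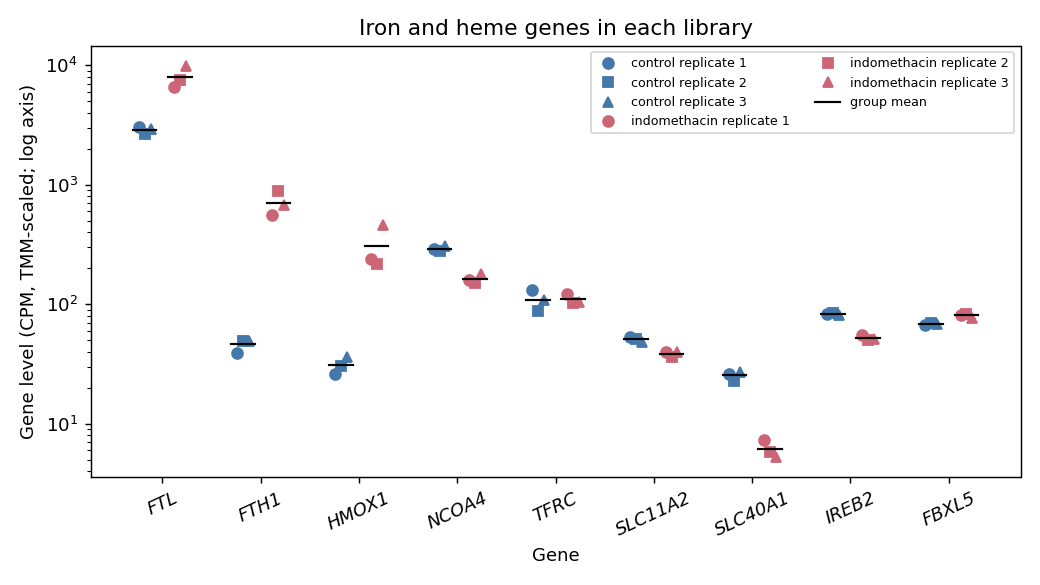
Level of each tested gene in each of the 6 libraries (CPM, log10 axis), control and indomethacin side by side; points are libraries and bars are group means. FTH1 and HMOX1 stand furthest above their controls, SLC40A1 lies below them, and the points of TFRC overlap.

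Ferritin is a shell built of heavy and light subunits. FTH1 (ENSG00000167996, chr11:61959718-61967634, minus strand) encodes the heavy subunit, which carries the ferroxidase site that oxidises iron for storage. Its level was 39.3, 49.4 and 49.5 CPM in control libraries and 560, 882 and 680 CPM with indomethacin. Every treated library was more than 10 times its highest control. The mean went from 46.1 ± 5.85 to 707 ± 162 CPM (SD, n = 3), 15.3-fold, with a log2 fold change of 3.94 (SE 0.17, adjusted p = 6.0e-10). Only 1.81% of the genes tested had a larger change in either direction, and by log2 fold change FTH1 was the 174th from the top.

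FTL (ENSG00000087086, chr19:48965309-48966879, plus strand) encodes the light subunit, which helps the iron core form. The control libraries held 3028, 2637 and 2947 CPM and the indomethacin libraries 6526, 7506 and 9928 CPM. The groups were well apart, although the indomethacin libraries spread widely. The mean went from 2871 ± 206 to 7987 ± 1751 CPM (SD, n = 3), 2.78-fold, with a log2 fold change of 1.48 (SE 0.16, adjusted p = 3.4e-06). As a share of all counts FTL took 0.295%, 0.267% and 0.287% in control and 0.685%, 0.783% and 0.944% with indomethacin. A larger change in either direction was seen in 19.6% of the genes tested.

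FTMT (chr5:121851882-121852833), the gene of mitochondrial ferritin, had 0 counts in all 6 libraries. It lay under the limit given above and could not be tested.

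The measured level of FTH1 is too low by an amount that the counts cannot give. Its gene lies tail to tail with BEST1 on the other strand, and 1267 of its 2004 exon bases (63.2%) are also exon of BEST1. In these tables reads over exons of more than 1 gene were not counted, across strands as well. Of 731 genes whose exons lie wholly within exons of the opposite strand, 730 had 0 counts in all 6 libraries, against 37.3% of 43284 genes that share no exon. In the mRNA of 1229 bases, the 349 bases that are not shared are the 235 bases of the 5′ UTR, where the IRE lies, and the first 114 of 549 coding bases. The rest of the coding sequence and the 445 bases of the 3′ UTR are shared. FTL, SLC11A2, SLC40A1, HMOX1, NCOA4 and IREB2 share no exon base, and TFRC and FBXL5 share 78 of 7794 and 18 of 4701.

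**Figure D2:**
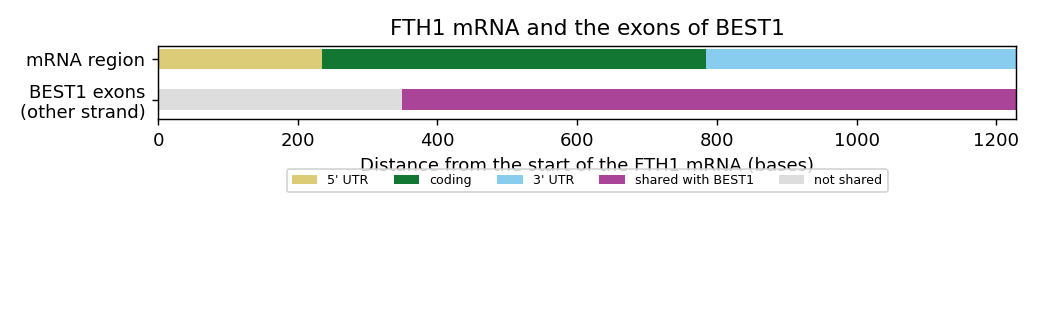
Map of the 1229-base FTH1 mRNA, in bases from its 5′ end: the 5′ UTR, coding sequence and 3′ UTR, and below them the stretch shared with exons of BEST1. The first 349 bases are not shared and the rest is.

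BEST1, which encodes a chloride channel of the retinal pigment epithelium and is named here only for this overlap, rose too. It had 42, 50 and 26 counts in control libraries and 604, 696 and 567 with indomethacin. Its mean went from 1.80 ± 0.506 to 32.4 ± 3.25 CPM (n = 3; log2 fold change 4.16, SE 0.19, adjusted p = 8.8e-10). Its part in the rise of FTH1 was not tested. The direction of both genes was the same, and FTH1 held many more counts, 3023 in control and 40921 with indomethacin.

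Ferritin genes have processed copies elsewhere in the genome, and reads from the parent mRNA can map to them. Of 25 annotated copies of FTH1, 19 had counts and 15 had 20 or more. All 15 had a higher sum with indomethacin, and in 14 of them the groups did not overlap, with 33.7% of all genes tested apart and higher. Several copies reached 20 counts only through the indomethacin libraries, so their direction was partly fixed by that limit and these counts support nothing. These 15 copies were 77.3% to 97.6% identical to the FTH1 mRNA, with a median of 96.2%, so their reads cannot safely be told from those of the parent. Together the FTH1 copies held 16.9 ± 3.83 CPM in control and 192 ± 43.9 CPM with indomethacin (n = 3), 11.4-fold. FTH1P7 went from 5.35 ± 1.06 to 69.2 ± 9.94 CPM (log2 fold change 3.69, SE 0.16, adjusted p = 5.9e-10). FTH1P10 went from 4.60 ± 1.82 to 49.6 ± 17.4 CPM (log2 fold change 3.44, SE 0.27, adjusted p = 1.3e-07).

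The copies took 35.1%, 23.1% and 22.6% of the counts of FTH1 and its copies in control libraries and 22.6%, 16.1% and 26.3% in indomethacin libraries. These shares overlapped between the groups. The parent count leaves out most of the FTH1 mRNA, as described above, so these shares can be too high. They cannot be set directly beside those of FTL, which shares no exon base. For FTL the copies were minor, 0.298 ± 0.0440% of the counts in control and 0.272 ± 0.0351% with indomethacin (n = 3). Of the 16 FTL copies, 10 had counts and only FTLP3 could be tested, at 7.58 ± 1.54 CPM in control and 19.8 ± 6.90 CPM with indomethacin (log2 fold change 1.39, SE 0.22, adjusted p = 1.1e-04). The copy FTLP2 had 9, 4 and 9 counts in control libraries and 9, 14 and 20 in indomethacin libraries, too few to test.

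**Figure D3:**
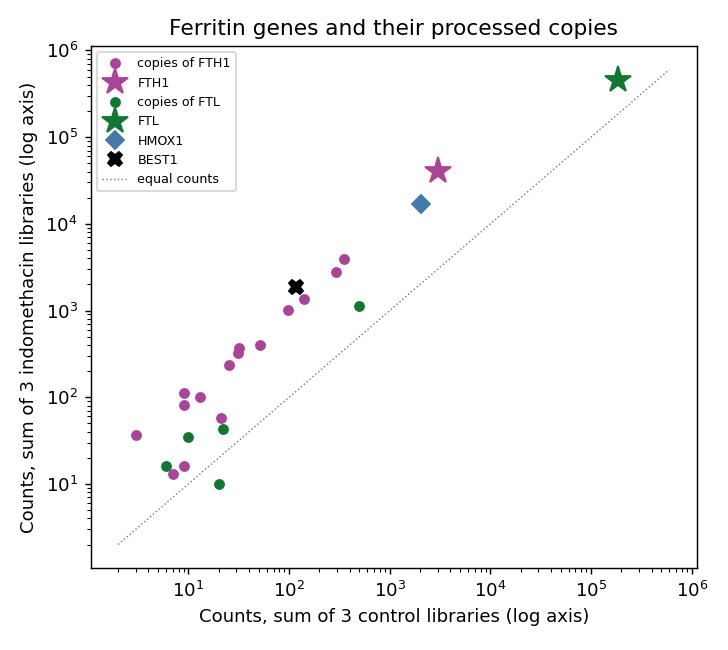
Counts summed over the 3 control libraries (x axis, log scale) and over the 3 indomethacin libraries (y axis, log scale), not scaled for depth, for FTH1, FTL, HMOX1 and BEST1 and for each ferritin copy with 20 or more counts; the dotted line marks equal counts. All 15 FTH1 copies and 4 of the 5 FTL copies lie above the line, as does FTH1 with 3023 and 40921 counts.

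The ratio of the mRNAs of both subunits was compared within each library, which is free of the scaling between libraries. Per kilobase of exon, the ratio of FTL to FTH1 was 177, 123 and 137 in control libraries and 26.8, 19.6 and 33.6 with indomethacin. The groups did not overlap, and the mean ratio went from 146 ± 28.2 to 26.7 ± 7.01 (SD, n = 3). The difference of the log2 ratios was -2.47, with p = 0.1 by a two-sided exact permutation test, the smallest p that 3 libraries against 3 can give. With the copies added to their parents the difference was -2.36. The ratio itself is too high in both groups, since most of FTH1 was not counted. Over the exon bases that FTH1 does not share, its level was 62.5 ± 7.93 CPM per kilobase in control and 960 ± 220 with indomethacin. FTL, at 3296 ± 237 and 9170 ± 2011 CPM per kilobase, was above that figure in both groups. At most 349 of these 737 unshared bases lie in the FTH1 mRNA, so the FTH1 figure can still be too low. The comparison therefore does not settle which subunit mRNA was more abundant.

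NCOA4 (chr10:46005088-46030623) encodes the receptor that carries ferritin to the lysosome, where its iron is released. It was 290, 279 and 307 CPM in control and 160, 149 and 179 CPM with indomethacin. All treated libraries lay below all controls, with little spread in either group. Mean levels were 292 ± 14.5 and 163 ± 15.1 CPM (n = 3), with a log2 fold change of -0.84 (SE 0.11, adjusted p = 1.2e-05). The mRNA for ferritin breakdown was thus lower in the same libraries in which both subunit mRNAs were higher.

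TFRC (chr3:196027183-196082096), the transferrin receptor, was 131.7, 87.7 and 107.9 CPM in control and 123.0, 102.7 and 105.3 CPM with indomethacin. The libraries of both groups were interleaved, and the lowest and the highest were both controls. The means were 109 ± 22.1 and 110 ± 11.0 CPM (n = 3), and the log2 fold change of 0.02 (SE 0.14, adjusted p = 0.92) did not pass. Across 15 other ways of processing the counts, its log2 fold change ran from -0.16 to 0.13. TFR2, its homologue best known from liver, had 2 counts in control and 2 with indomethacin and could not be tested.

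SLC11A2 (chr12:50979401-51028566) encodes the divalent metal transporter that moves iron out of the endosome. It was 53.0, 51.0 and 48.7 CPM in control and 40.0, 35.9 and 40.2 CPM with indomethacin. The groups did not overlap, but the step between them was small. Mean levels were 50.9 ± 2.18 and 38.7 ± 2.42 CPM (n = 3), with a log2 fold change of -0.40 (SE 0.10, adjusted p = 0.0045).

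SLC40A1 (chr2:189560590-189583758) encodes ferroportin, the exporter of cellular iron. It was 26.1, 23.0 and 27.4 CPM in control and 7.30, 5.85 and 5.28 CPM with indomethacin. The highest treated library lay far below the lowest control. The mean went from 25.5 ± 2.24 to 6.14 ± 1.04 CPM (n = 3), 4.13-fold lower, with a log2 fold change of -2.05 (SE 0.15, adjusted p = 7.2e-08). A larger change was seen in 10.5% of genes.

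HMOX1 (chr22:35380361-35394214) encodes heme oxygenase 1, the inducible enzyme that opens the heme ring and frees its iron. It was 25.9, 30.7 and 36.4 CPM in control and 238, 218 and 462 CPM with indomethacin. All treated libraries lay far above the controls, and the third was about as far above the other two as these were above the controls. The mean went from 31.0 ± 5.23 to 306 ± 135 CPM (n = 3), 9.86-fold, with a log2 fold change of 3.30 (SE 0.25, adjusted p = 7.8e-08). It was the 299th gene from the top by log2 fold change. HMOX2, the constitutive heme oxygenase, went from 46.0 ± 2.99 to 31.3 ± 2.46 CPM (n = 3; log2 fold change -0.56, adjusted p = 5.6e-04).

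IREB2 (chr15:78437431-78501453) encodes iron regulatory protein 2, which binds IREs. It was 82.6, 84.4 and 81.7 CPM in control and 55.6, 50.0 and 51.3 CPM with indomethacin. The groups were clearly apart, and the controls were nearly identical. Mean levels were 82.9 ± 1.40 and 52.3 ± 2.94 CPM (n = 3), with a log2 fold change of -0.66 (SE 0.10, adjusted p = 5.3e-05). Its partner ACO1, which encodes iron regulatory protein 1, the cytosolic aconitase, fell as well, from 86.9 ± 7.27 to 43.4 ± 2.98 CPM (n = 3; SE of the log2 fold change 0.11, adjusted p = 2.6e-06).

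FBXL5 (chr4:15604381-15681679) encodes the iron-sensing subunit of the ubiquitin ligase that marks iron regulatory proteins for degradation. It was 66.7, 69.8 and 67.7 CPM in control and 81.6, 83.6 and 76.8 CPM with indomethacin. The groups did not overlap. The means were 68.1 ± 1.58 and 80.7 ± 3.52 CPM (n = 3), and the log2 fold change was 0.24 (SE 0.10, adjusted p = 0.042). This call was lost in 9 of 15 alternatives, DESeq2 among them (adjusted p = 0.063), with adjusted p between 0.0052 and 0.44 over all 15. Leaving out any 1 control library ended it, with adjusted p of 0.22, 0.15 and 0.17 without the first, the second and the third, and so did leaving out indomethacin library 1 (0.10) or 2 (0.13).

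Per kilobase of exon the control levels ran from FTL at 3296 ± 237 through NCOA4 at 73.2 ± 3.64 and FTH1 at 23.0 ± 2.92 down to SLC11A2 at 5.15 ± 0.221 CPM per kilobase. FBXL5 (14.5 ± 0.336), TFRC (14.0 ± 2.83) and HMOX1 (13.4 ± 2.27) followed FTH1 and did not differ beyond their spread. IREB2 (7.67 ± 0.130) and SLC40A1 (6.04 ± 0.530) came next. With indomethacin FTH1 at 353 ± 81.0 and HMOX1 at 133 ± 58.7 stood above NCOA4 at 40.8 ± 3.79, and SLC40A1 at 1.46 ± 0.248 was lowest. FTH1 is understated in this order for the reason given above. The kilobases are of all annotated exon bases of a gene, which can exceed its mRNA. SLC11A2 has 9888 such bases against an mRNA of 4348, and SLC40A1 has 4218 against 3442. The order of genes with close levels, the lowest in control among them, therefore depends on the length used.

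The position of the IRE did not sort these mRNAs by direction. Of the mRNAs with a match in the 5′ UTR, FTH1 and FTL were higher and SLC40A1 was lower, and TFRC, with 4 matches in the 3′ UTR, did not pass. In the further list of iron-sensing genes, CDC14A and ALAS2, named here after their values were seen, also held a match. CDC14A, a phosphatase with a match in the 3′ UTR, had a log2 fold change of -0.38 (adjusted p = 0.051), and ALAS2, the erythroid enzyme of heme synthesis, had too few counts to test.

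Around these genes, 103 others of iron and heme handling were read from 6 lists, and 88 could be tested: 31 were higher, 41 were lower and 16 did not pass. Over all genes tested 30.6% were higher and 31.0% lower, and the counts of each list below are to be read beside these shares. The median log2 fold change of the 88 was -0.25, against 0.04 over all genes.

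**Figure D4:**
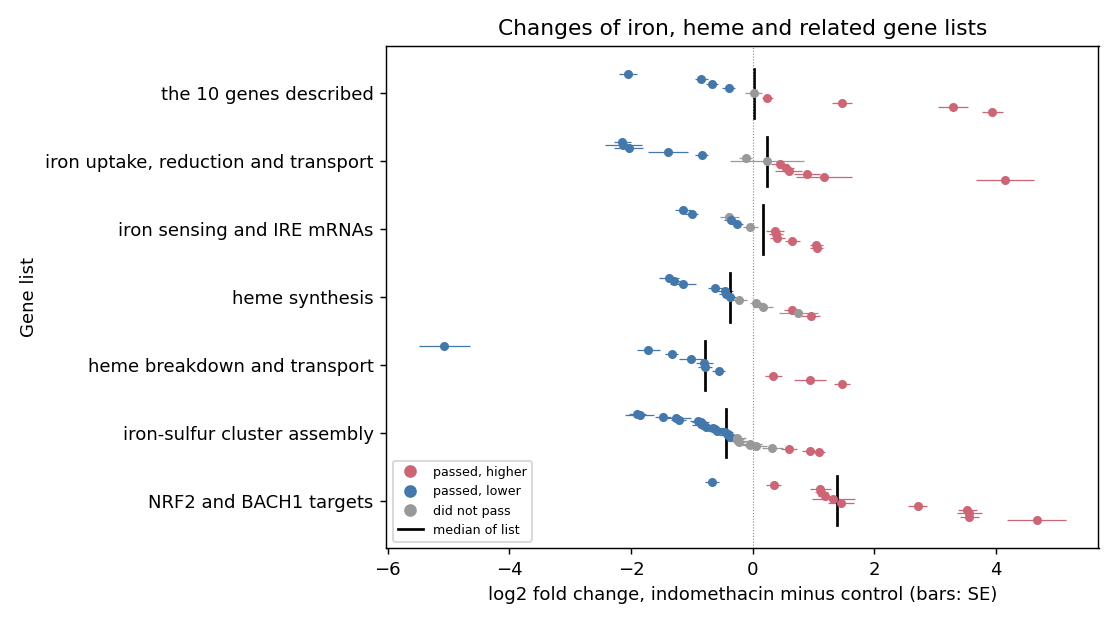
Log2 fold change, indomethacin minus control, of every tested gene in the 10 genes described and in the 6 further lists; coloured points passed an adjusted p of 0.05, grey points did not, horizontal bars are SE and vertical bars are medians. The median is 1.39 for the NRF2 and BACH1 targets and -0.79 for heme breakdown and transport.

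Of 25 genes of iron uptake, reduction and transport, 13 were tested, and 6 rose, 5 fell and 2 did not pass, with a median of 0.24. The ferrireductase STEAP3, which reduces iron in the endosome for SLC11A2 to carry, fell from 25.1 ± 2.37 to 5.70 ± 0.523 CPM (n = 3; log2 fold change -2.14, adjusted p = 2.5e-08), and 11.0% of its exon bases are shared with its antisense gene. HFE, which binds the transferrin receptor, fell from 10.0 ± 1.54 to 2.43 ± 0.857 CPM (log2 fold change -2.03, adjusted p = 5.7e-06). LCN2, a secreted protein that binds iron-laden siderophores, rose from 0.274 ± 0.239 to 4.99 ± 0.295 CPM, on 18 against 290 counts (log2 fold change 4.15, adjusted p = 4.1e-06). So an endosomal partner of the transferrin receptor pathway fell while the receptor itself did not pass the test.

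Of 13 iron-sensing and IRE genes, 12 were tested, and 6 rose, 4 fell and 2 did not pass, with a median of 0.17. BACH1, the heme-sensing repressor of HMOX1 and of the ferritin genes, rose from 47.2 ± 3.36 to 97.8 ± 3.16 CPM (n = 3; log2 fold change 1.05, adjusted p = 9.0e-07). CDC42BPA, a kinase whose mRNA is listed among those with an IRE, rose from 166 ± 16.7 to 344 ± 20.9 CPM (log2 fold change 1.05, adjusted p = 1.9e-06). BACH1 mRNA, HMOX1 and both ferritin mRNAs were thus higher in the same libraries.

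Of 14 heme synthesis genes, 13 were tested, and 2 rose, 7 fell and 4 did not pass, with a median of -0.38. ALAS1, the rate-limiting first enzyme outside red cells, rose from 60.8 ± 6.60 to 118 ± 29.4 CPM (n = 3; log2 fold change 0.96, adjusted p = 1.1e-04). The middle steps fell: UROD went from 77.1 ± 4.62 to 31.6 ± 3.29 CPM (log2 fold change -1.29, adjusted p = 3.0e-07) and UROS from 35.6 ± 0.397 to 13.7 ± 3.85 CPM (adjusted p = 6.5e-06). In UROD 9.31% of exon bases are shared with another gene.

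Of 11 genes of heme breakdown and transport, 10 were tested, and 3 rose and 7 fell, with a median of -0.79. BLVRB, a biliverdin and flavin reductase, rose from 88.6 ± 9.89 to 246 ± 39.6 CPM (n = 3; log2 fold change 1.47, adjusted p = 4.6e-07). ABCG2, an exporter that carries porphyrins and heme among many substrates, fell from 3.68 ± 0.391 to 0.108 ± 0.0661 CPM, on 240 against 6 counts (log2 fold change -5.07, adjusted p = 2.0e-07). PGRMC1, a heme-binding membrane protein, fell from 102 ± 8.35 to 40.6 ± 1.52 CPM (log2 fold change -1.33, adjusted p = 1.3e-07). BLVRA, named here after its values were seen, encodes the reductase that takes the biliverdin made by heme oxygenase, and it fell from 27.3 ± 1.52 to 15.9 ± 0.670 CPM (n = 3; log2 fold change -0.78, adjusted p = 5.3e-05). HMOX1 and the reductase that follows it thus moved in opposite directions, and the reductases BLVRA and BLVRB did so too.

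Of 29 genes of iron-sulfur cluster assembly, 28 were tested, and 3 rose, 17 fell and 8 did not pass, with a median of -0.43. NUBPL, an assembly factor for respiratory complex I, fell from 22.9 ± 1.23 to 6.16 ± 0.667 CPM (n = 3; log2 fold change -1.89, adjusted p = 6.8e-08). NFS1, the cysteine desulfurase that supplies the sulfur, fell from 26.1 ± 2.47 to 9.39 ± 1.05 CPM (log2 fold change -1.47, adjusted p = 6.5e-07). ISCU, the scaffold on which the cluster is built, went the other way, from 39.9 ± 1.03 to 84.7 ± 2.82 CPM (log2 fold change 1.08, adjusted p = 4.8e-07).

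FTH1, FTL and HMOX1 belong to the genes that the transcription factor NRF2 activates and BACH1 represses. Of 12 other genes of that kind all 12 were tested, and 11 rose and 1 fell, with a median of 1.39. TXNRD1, thioredoxin reductase, rose from 104 ± 3.94 to 1227 ± 245 CPM (n = 3; log2 fold change 3.57, adjusted p = 4.7e-10). The subunits of the enzyme that starts glutathione synthesis rose too, GCLC from 44.7 ± 1.03 to 517 ± 118 CPM (log2 fold change 3.53, adjusted p = 5.9e-10) and GCLM from 22.8 ± 1.67 to 150 ± 34.4 CPM (log2 fold change 2.71, adjusted p = 4.7e-09). PRDX1, a peroxiredoxin, fell from 402 ± 37.5 to 253 ± 25.8 CPM (log2 fold change -0.67, adjusted p = 2.0e-04), and 29.8% of its exon bases are shared with a neighbouring gene. Among the 11 that rose, the log2 fold changes ran from 0.35 to 4.67. The smallest was that of NQO1, named here after its values were seen (adjusted p = 0.023). FTH1 (3.94), HMOX1 (3.30) and FTL (1.48) lay within this wide range. Whether they rose for the same reason as these genes was not tested.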

How the data were processed

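Per the labels' protocols, a stranded total RNA kit was used and read pairs were sequenced on a NovaSeq instrument. The authors deposited 1 table of raw counts per gene and library, with exon coordinates on hg38. Trimming with cutadapt 1.16, alignment with HISAT2 2.1.0 and counting with featureCounts are named per the submitters' processing notes. The strand setting and the treatment of multi-mapped reads are not given in the sources used here.

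Of 60607 lines 3 were dropped, where the record of 1 gene is split. Genes kept by filterByExpr (17200) were scaled by TMM and tested with edgeR 4.0.16 (R 4.3.3), quasi-likelihood, group as the only term, with Benjamini-Hochberg adjustment over all genes tested and a threshold of 0.05. Each standard error is the log2 fold change over the root of its F statistic. The test was tested on simulated data in which few genes changed and all genes had the same dispersion. Most genes moved in the real libraries, so that run cannot show how well the scaling and the calls hold here. No 2 replicates agreed within sampling noise (chi-square over degrees of freedom, 7.91 to 25.9). Exon overlaps came from the deposited coordinates, and IRE matches and copies from GENCODE 29 transcripts.

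The 10 genes and the further lists were chosen with earlier results of these data known. Named genes were all 10, from each further list the 3 called genes with the smallest adjusted p and the first called against the list's majority, HMOX2, ACO1 and TFR2 as partners, and up to 2 copies of each ferritin gene.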

Additional observations from a re-analysis of the deposited data

How the results depend on the processing

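The alternatives were limma-voom, DESeq2 1.42.0, RLE and upper-quartile scaling, library sizes that leave out mitochondrial and small structured RNAs, no filter, a filter of 1 CPM in 3 libraries, a replicate block, ferritin copies added to FTH1 and FTL, and each library left out in turn. Over these 15 the count of called genes ran from 9625 to 11722, and 7 or 8 of the 9 tested members passed. The 7 called members other than FBXL5 kept call and direction in all 15. HMOX1 ranged from 2.87 to 3.49 on the log2 scale, FTH1 from 3.75 to 4.06, FTL from 1.28 to 1.59 and SLC40A1 from -2.21 to -1.93. TFRC never passed (adjusted p 0.34 to 0.97). Upper-quartile scaling moved the median of all genes by 0.12 and no filter by -0.11. Called iron-sensing genes that fell numbered 2 instead of 4 with upper-quartile scaling and also without indomethacin replicate 2, and called uptake genes that rose numbered 3 instead of 6 with no filter. LCN2 was 4.93 with limma-voom and 3.55 without control replicate 3.

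With the replicate number as a block, 10601 genes passed. FBXL5 did not (adjusted p = 0.052), and no other member's call changed. The block left the log2 ratio of FTL to FTH1 at -2.47, with p = 0.25 by exact permutation, the smallest possible within 3 pairs. Same-numbered libraries deviated together only weakly (correlations 0.023, 0.012 and 0.13), so the numbers were not taken as pairs. Leaving out each library gave -2.65 to -2.26 for that ratio. Depth limited FTMT and TFR2, at or near 0 counts.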
